A study of Homo sapiens with 30 samples.

Results

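LMO1, LMO2, LMO4, LYL1, TAL1 and LDB1 encode the LIM-only adaptors, the basic helix-loop-helix factors and the scaffold that assemble into 1 family of DNA-binding complexes, and they were followed through every condition of an array study of the human leukemia line LOUCY. All 6 genes carry a symbol of their own on the HG U133 Plus 2.0 array, where 15 of the 54613 probe sets tested read them, and the brightest probe set of each gene, by its mean over all 30 arrays, stands for it (6 of 19775 genes). LOUCY is an established line with an immature ETP-ALL phenotype, and its own *MEF2C* is active through a rearrangement at the locus. The 10 groups hold 3 arrays each. A line with dox-inducible MEF2C and ICN (intracellular NOTCH1), with dox and without dox, and a line with dox-inducible ICN alone, with dox and without dox, were grown in medium. The third line, with dox-inducible MEF2C, was cultured on OP9-DL1, on OP9-GFP or in medium, each with dox and without dox. OP9 cells are stroma from mouse bone marrow, and Delta-like 1, a ligand of Notch, is present on OP9-DL1 and not on OP9-GFP. The lines were made by lentiviral transduction and flow sorting. The induced MEF2C is codon optimized and lacks the β domain, and details of the ICN constructs are not given in the sources used here. No line without a construct was given dox on these arrays, so an effect of dox itself cannot be told apart from that of the constructs, and a line cannot be told apart from what it carries.

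LMO proteins consist of LIM zinc fingers and bind no DNA themselves. They bridge LDB1, a scaffold that can join distant sites on a chromosome, to factors that do bind DNA: TAL1 or LYL1, each paired with an E protein such as TCF3 or TCF12 at an E-box, and GATA factors at a GATA site. LMO1, LMO2, LYL1 and TAL1 are oncogenes of T-ALL when they are switched on in thymocytes, LMO2 and LYL1 are active in ETP-ALL and in early progenitors, and LMO4 is the family member found in the widest range of tissues.

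Values are log2 expression values made by the authors with robust multiarray averaging (RMA), so a difference of 1 is 1 doubling. Array medians ran from 4.76 to 4.84, and arrays of a group correlated at 0.990 to 0.998. Nothing in the sources says that the 3 arrays of a group are separate cultures. The p-values therefore rest on the spread of these arrays alone, and that spread may be technical. In such bulk RNA, fewer cells of a type and less RNA per cell cannot be told apart. A gene rose or fell where its adjusted p was under 0.05 in limma. The mean of 8 T lineage markers was 8.06 to 9.07 across the groups, with *CD2* near the floor, and 7 of the 8 fell with MEF2C over the cultures, among them *CD3D* (-0.64) and *CD5* (-0.69). With ICN 4 of them rose and 1 fell. Of 7 erythroid markers measured, of the other lineage that uses TAL1, 4 or 5 had a mean under 5 in each group, and the mean of the 7 was 4.30 to 4.49. With MEF2C over the cultures *AHSP* rose (0.39) and the other 6 did not pass. The mean of 11 stromal markers was 4.56 on OP9-DL1, 4.55 on OP9-GFP and 4.48 in medium with dox, and 4.75, 4.83 and 4.75 without, with 7 or 8 of them under 5, and *COL6A3* (-1.71) and *SPARC* (-0.37) fell with MEF2C. Endothelial markers averaged 3.97 to 4.26 and B lineage markers 4.94 to 5.57. Over the cultures *VWF* fell with MEF2C (-0.28), and the 4 other endothelial and all 4 B lineage markers measured did not pass. The B lineage marker *CD79A* had group means of 6.01 to 8.05. It rose with ICN (0.66) and was lower on OP9-GFP than in medium without dox (-0.72) and in the uninduced MEF2C and ICN line than in the MEF2C line (-1.58). The part of all these markers in the results on the members was not tested.

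Of the 3 probe sets that the annotation table gives to *MEF2C* alone, 207968_s_at rose with dox wherever the line carries MEF2C, by 0.66 in the MEF2C and ICN line (8.25 with dox, 7.58 without) and by 0.63, 1.23 and 0.53 in the MEF2C line on OP9-DL1, on OP9-GFP and in medium. Both brighter *MEF2C* probe sets, 209199_s_at and 209200_at, fell in the same comparisons, by at least 2.21 in the MEF2C and ICN line (209199_s_at) and by 0.98 to 1.19 in the MEF2C line. Most *MEF2C* probe sets are described by the study as outside the cloned sequence, and so as reading the cell's own transcript, without their IDs. Which of those named here read the codon optimized transcript was not tested. *NOTCH1* probe set 223508_at rose by 0.81 in the MEF2C and ICN line and by 0.56 in the ICN line, and the Notch target *DTX1* rose by 2.78 and 2.31. *HES1*, a repressor that Notch switches on, was 10.90 with dox and 9.34 without in the MEF2C and ICN line, and 10.59 with dox and 10.19 without in the ICN line. 1 gene of the complexes sets the MEF2C and ICN line apart: *HDAC2*, a histone deacetylase of corepressor complexes, lay between 2.04 and 2.89 in its 6 arrays, against 9.66 to 10.46 in the other 24, at its brightest probe set. Its dim second probe set (242141_at) averaged 4.56 with dox and 4.33 without in that line, against 4.93 to 5.38 in the other groups. Its part in what follows was not tested, and every comparison with the MEF2C and ICN line carries it.

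In GRCh38.p14 (RefSeq), LMO1 lies at chr11:8224309-8268787, LMO2 at chr11:33858576-33892076, LMO4 at chr1:87328880-87348923, LYL1 at chr19:13099033-13102858, TAL1 at chr1:47216290-47232335 and LDB1 at chr10:102102088-102121442. For 5 of these members the RefSeq table gives promoter windows, 7 in all, each from 250 bases before a start site to 50 after it (GRCh38.p14, RefSeq). The windows of LMO1, LMO4 and LYL1 are shown because these members moved with MEF2C in every culture. They are printed 5′ to 3′ on the gene's strand. Capitals mark letters found by search on both strands: the CSL-type letters TGGGAA in LMO1, an E-box (CANNTG) in LMO4, and in LYL1 the GATA-type letters AGATAA, which lie on the other strand and so read TTATCT. For LMO4 the first of its 2 windows is printed.
LMO1, chr11:8268738-8269037, minus strand: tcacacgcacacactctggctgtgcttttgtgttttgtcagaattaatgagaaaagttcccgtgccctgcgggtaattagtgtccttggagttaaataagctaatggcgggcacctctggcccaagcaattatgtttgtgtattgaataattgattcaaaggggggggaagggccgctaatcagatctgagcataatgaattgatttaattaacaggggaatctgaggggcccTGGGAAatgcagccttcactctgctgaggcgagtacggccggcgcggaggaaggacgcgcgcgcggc
LMO4, chr1:87328630-87328929, plus strand: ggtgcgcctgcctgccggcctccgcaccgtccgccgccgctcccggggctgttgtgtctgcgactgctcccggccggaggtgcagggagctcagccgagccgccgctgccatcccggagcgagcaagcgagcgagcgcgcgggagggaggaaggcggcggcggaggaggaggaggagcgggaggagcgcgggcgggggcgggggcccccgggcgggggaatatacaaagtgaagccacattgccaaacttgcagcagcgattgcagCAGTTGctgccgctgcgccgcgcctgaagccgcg
LYL1, chr19:13102809-13103108, minus strand: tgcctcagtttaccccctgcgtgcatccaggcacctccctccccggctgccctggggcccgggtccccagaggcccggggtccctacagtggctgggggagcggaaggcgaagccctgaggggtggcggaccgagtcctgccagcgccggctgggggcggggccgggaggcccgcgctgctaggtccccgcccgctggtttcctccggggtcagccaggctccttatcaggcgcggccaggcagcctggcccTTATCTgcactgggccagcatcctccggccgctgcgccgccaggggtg
None of the 7 windows holds a match to the MEF2 site, which 2.99% of all 35116 windows in the table do. E-box letters stand in 68.7% of all windows, TGGGAA in 24% and AGATAA in 10.3%. The windows of LMO4 and LYL1 are rich in G and C (74% and 74.7%), and that of LMO1 is not (50.7%). The E-box of LMO4 starts at base 17 of the transcribed part, the TGGGAA of LMO1 17 bases before the start site, and the GATA-type letters of LYL1 at base 3 of the transcribed part. Among the members that did not pass over the 3 cultures, a TAL1 window holds an E-box and AGATAA letters, and the LDB1 window holds none of the 4 motifs. A match is a description of letters and not a site of binding.

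*LMO4* and *LMO1* rose with MEF2C induction in each culture, while *LYL1* fell in each. Over the 9 arrays with dox and the 9 without, 3 of the 6 members were called, 2 up and 1 down, where 7.2% of all genes were called. *TAL1*, *LDB1* and *LMO2* did not pass (-0.13, 0.00 and -0.15).

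The *LMO4* probe set (209205_s_at) read 9.79, 9.89 and 9.57 with dox and 8.48, 8.55 and 8.57 without on OP9-DL1. On OP9-GFP it read 10.02, 10.07 and 10.23 with dox and 8.36, 8.29 and 8.38 without. In medium it read 10.45, 10.29 and 10.34 with dox and 8.57, 8.68 and 8.62 without. Every array with dox was above every array without, in all 3 cultures. The rise was 1.57 over the cultures (SE 0.10, 2.97-fold, adjusted p = 9.38e-10). By culture it was 1.21 on OP9-DL1 (adjusted p = 1.54e-10), 1.76 on OP9-GFP (adjusted p = 7.36e-14) and 1.74 in medium (adjusted p = 7.92e-14). The 4 other *LMO4* probe sets rose in each culture too, by 0.60 to 2.09, so the rise does not rest on 1 probe set. Of these, 229537_at, 227155_at and 241922_at are dim (means 4.68, 4.56 and 4.37), so the sizes of their changes are no exact folds.

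*LMO1* was dim before induction and above the middle of the array after it. It read 5.55, 4.99 and 4.99 with dox and 3.88, 3.68 and 3.73 without on OP9-DL1. On OP9-GFP it read 5.52, 5.10 and 5.55 with dox and 4.08, 3.99 and 4.19 without, and in medium 5.57, 5.25 and 5.35 with dox and 4.13, 3.87 and 4.10 without. In each culture every array with dox was above every array without. *LMO1* rose by 1.36 over the cultures (SE 0.10, adjusted p = 5.18e-09), and by 1.41, 1.30 and 1.35 on OP9-DL1, on OP9-GFP and in medium. Its level without dox lay under the array medians of about 4.8, so these differences are set against a dim signal and are no exact folds, and it has no second probe set as a check.

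*LYL1*, by contrast, was among the brighter genes of these cells (mean 9.49, above 93.1% of probe sets). It read 9.55, 9.56 and 9.51 with dox and 9.94, 9.93 and 10.03 without on OP9-DL1. On OP9-GFP it read 9.67, 9.62 and 9.53 with dox and 10.29, 10.30 and 10.27 without. In medium it read 9.58, 9.43 and 9.36 with dox and 9.92, 10.04 and 10.13 without. The groups were apart in each culture. The fall was 0.56 on the log2 scale over the cultures (SE 0.06, adjusted p = 4.64e-06), and the changes by culture were -0.43, -0.68 and -0.58, each past the threshold.

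**Figure D1:**
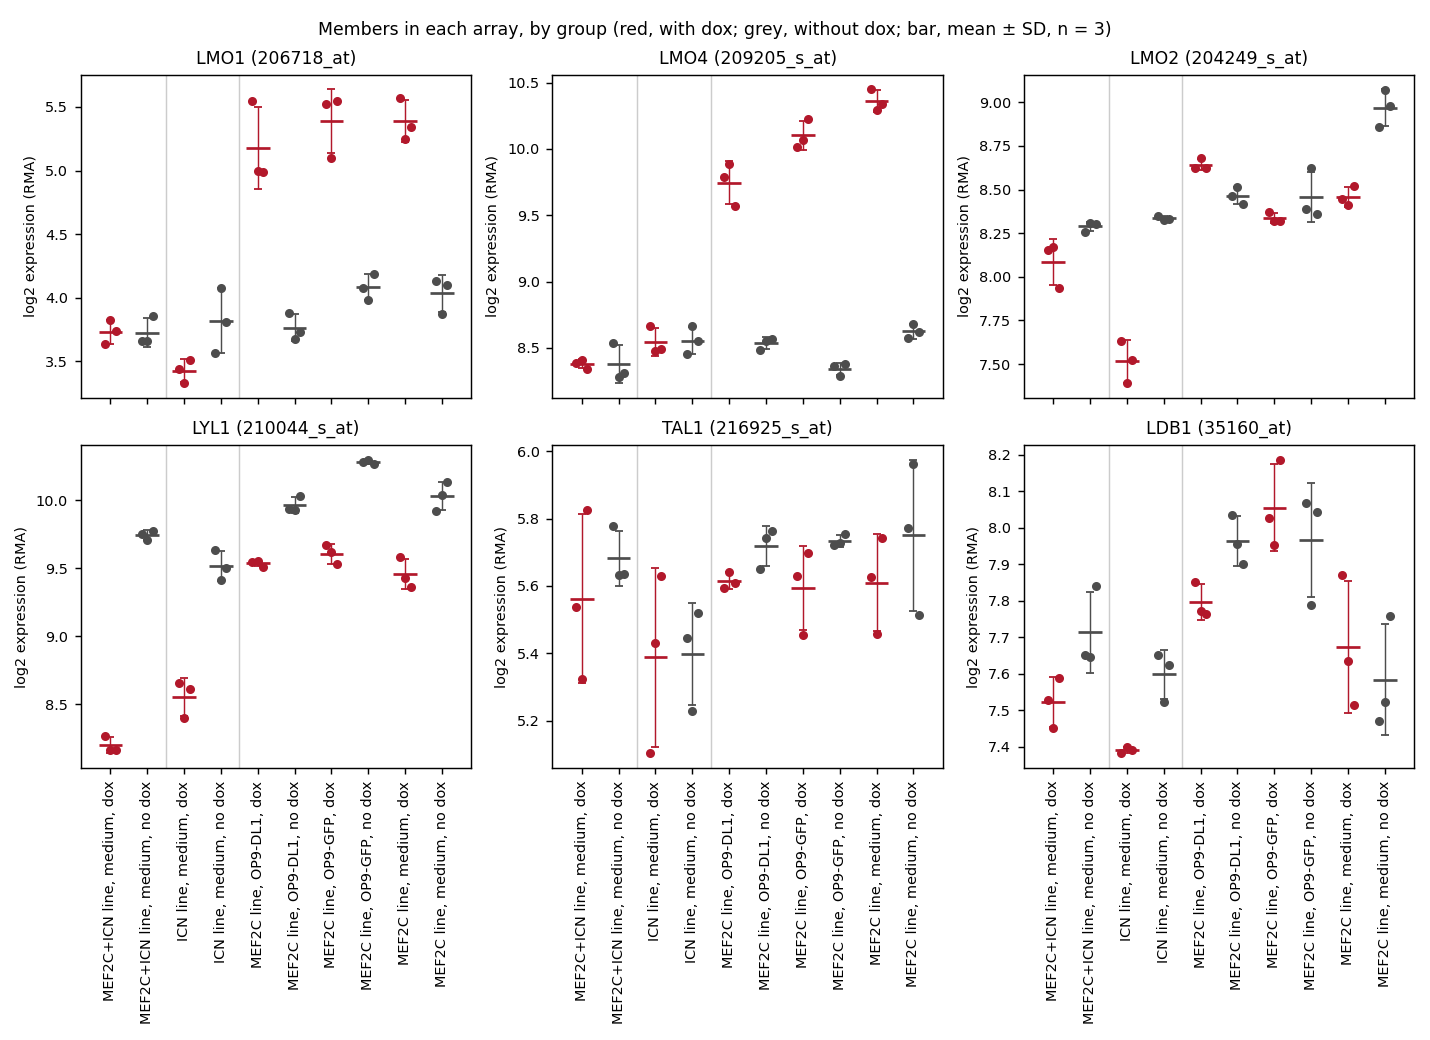
Log2 expression of the 6 members in each of the 30 arrays, by group, with the mean and SD of 3 arrays (red, with dox; grey, without dox; the vertical axis differs between panels). LMO1 and LMO4 are high only in the 3 groups of the MEF2C line with dox, and LYL1 is lowest in both groups with induced ICN.

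*LMO2*, an adaptor of early progenitors, passed the test with MEF2C in medium and not on stroma. In medium it read 8.45, 8.41 and 8.52 with dox and 8.86, 9.07 and 8.98 without, a change of -0.51 (SE 0.08, adjusted p = 4.6e-05) with no overlap. On OP9-GFP the means were 8.34 ± 0.03 with dox and 8.46 ± 0.14 without (SD, n = 3 each), and on OP9-DL1 8.64 ± 0.03 with dox and 8.46 ± 0.05 without, and neither change passed (-0.12 and 0.18, adjusted p = 0.428 and 0.274). The test of the difference between OP9-GFP and medium did not pass for *LMO2* (0.39, adjusted p = 0.179), although it did after quantile normalization (0.42, adjusted p = 0.0477) and without OP9-GFP replicate 2 lacking dox (0.47, adjusted p = 0.0417). The difference between OP9-DL1 and medium, a comparison added after the values were seen, passed (0.69, interval 0.47 to 0.91, adjusted p = 8.5e-04), also when any 1 of its 12 arrays was left out. At the dim second probe set it was 0.75 and did not pass (adjusted p = 0.379). The second *LMO2* probe set, 231049_at, is dim (mean 4.28) and also fell in medium, by 1.02, to 5.12 with dox against 6.13 without.

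In medium 4 members were called, 2 up and 2 down, against 8.6% of all genes. On OP9-GFP 3 were called, 2 up and 1 down, against 7.61%, and on OP9-DL1 3, 2 up and 1 down, against 5.9%. The change with dox was then compared between cultures. No member was called for OP9-DL1 minus OP9-GFP, where 0.131% of all genes were, and none for OP9-GFP minus medium, where 0.491% were. For OP9-DL1 minus medium 2 were, *LMO2* and *LMO4*, against 0.769% of all genes. The rise of *LMO4* was smaller on OP9-DL1 than in medium by 0.52 (interval of the difference -0.77 to -0.28, adjusted p = 0.0372), a call lost without any 1 of 9 of its 12 arrays (0.059 to 0.155), with median centring (0.0544), with the replicate number as a block (0.0517), with the mean of the probe sets (0.0971), with the second brightest probe set (0.108) and in a fit on the compared groups alone (0.14). The rise was smaller on OP9-DL1 than on OP9-GFP by 0.55 (interval of the difference -0.79 to -0.30, adjusted p = 0.0578). That difference passed with dim probe sets left out, after quantile normalization, and with a trended and robust prior (adjusted p = 0.0208, 0.0415 and 0.00765).

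*LYL1* and *LMO2* fell with ICN induction, and *LMO4* did not pass. Of the 6 members 2 were called, both down, where 15.9% of all genes were called. *LYL1* read 8.66, 8.40 and 8.61 with dox and 9.63, 9.42 and 9.50 without, a fall of 0.96 (SE 0.07, adjusted p = 3.8e-10). *LMO2* read 7.63, 7.39 and 7.52 with dox and 8.35, 8.33 and 8.33 without, a fall of 0.82 (SE 0.08, adjusted p = 9.72e-09), and its dim second probe set fell by 1.16. In both genes every array with dox was below every array without. *LMO1* read 3.44, 3.33 and 3.51 with dox and 3.57, 4.08 and 3.81 without, which did not pass (-0.39, adjusted p = 0.0707). *LMO4* differed by -0.01 (95% interval -0.18 to 0.16), *TAL1* by -0.01 and *LDB1* by -0.21 (adjusted p = 0.165).

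In the line that carries both constructs, dox did not raise *LMO1* or *LMO4*, and *LYL1* fell further than in either other line. Only *LYL1* of the 6 was called, against 16.8% of all genes. *LMO4* read 8.39, 8.41 and 8.34 with dox and 8.54, 8.28 and 8.31 without. Its change was 0.00 with an interval of -0.17 to 0.18, and that of *LMO1* was 0.01 with an interval of -0.28 to 0.30, from 3.64, 3.83 and 3.74 with dox and 3.66, 3.66 and 3.86 without. *LYL1* read 8.27, 8.16 and 8.16 with dox and 9.75, 9.71 and 9.78 without, a fall of 1.55 (SE 0.07, adjusted p = 1.49e-14). *LMO2* averaged 8.09 ± 0.13 with dox and 8.29 ± 0.03 without (SD, n = 3 each), and its change of -0.20 did not pass (adjusted p = 0.0847), although it did with dim probe sets left out (0.0344).

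Set against MEF2C induction in medium, the change with dox in the MEF2C and ICN line was lower for 3 members and higher for none, where 10.5% of all genes differed. The difference was -1.73 for *LMO4* (SE 0.12, adjusted p = 4.56e-11), -1.35 for *LMO1* (SE 0.20, adjusted p = 2.7e-05) and -0.97 for *LYL1* (SE 0.11, adjusted p = 2.15e-07). All 4 other *LMO4* probe sets differed in the same direction, by -2.33 to -0.77, sizes that are no exact folds at the dim ones. For *LMO2* the change was higher by 0.31, which did not pass. That difference passed with dim probe sets left out (adjusted p = 0.0336) and after quantile normalization (0.39, adjusted p = 0.00862). It also passed with the mean of the probe sets (0.74, adjusted p = 0.00168) and at the dim second probe set (1.18, adjusted p = 0.00345). Set against ICN induction, where 10.1% of all genes differed, *LYL1* had a further fall (-0.59, adjusted p = 4.42e-04) and *LMO2* a smaller one, with a difference of 0.62 (SE 0.11, adjusted p = 2.81e-04). Each pair of comparisons lies in different lines, and the rise of *MEF2C* probe set 207968_s_at was 0.66 in the MEF2C and ICN line and 0.53 in the MEF2C line in medium.

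**Figure D2:**
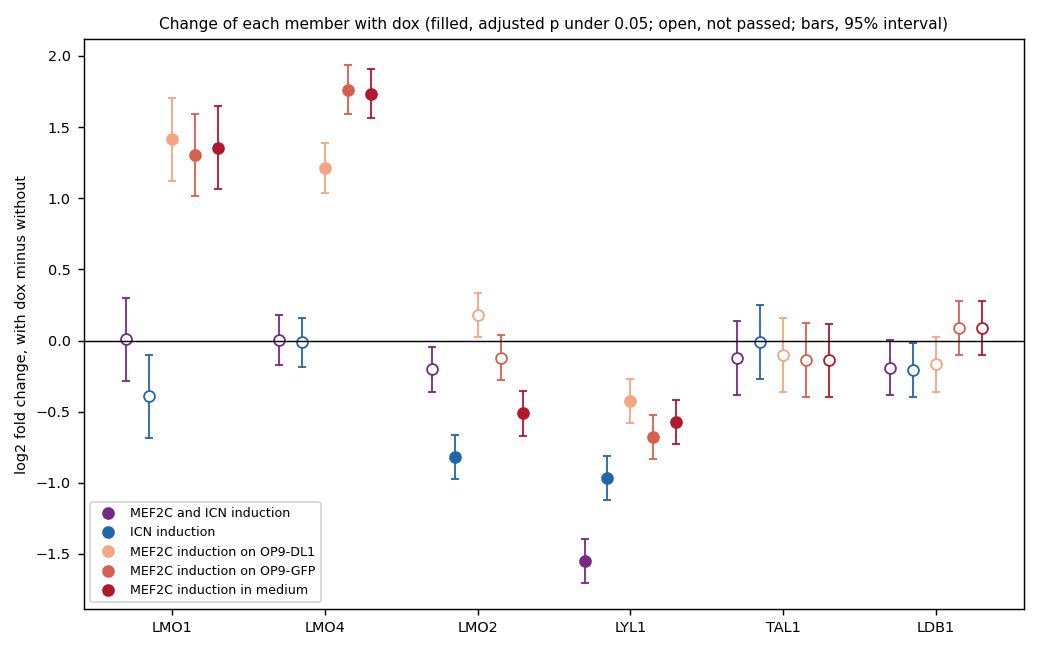
Log2 fold change of each member with dox against without in 5 inductions, with 95% intervals (filled points, adjusted p under 0.05; open points, not passed). LMO1 and LMO4 lie above 1 in the 3 cultures of the MEF2C line and at 0.01 and 0.00 in the MEF2C and ICN line, where LYL1 reaches -1.55.

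**Figure D3:**
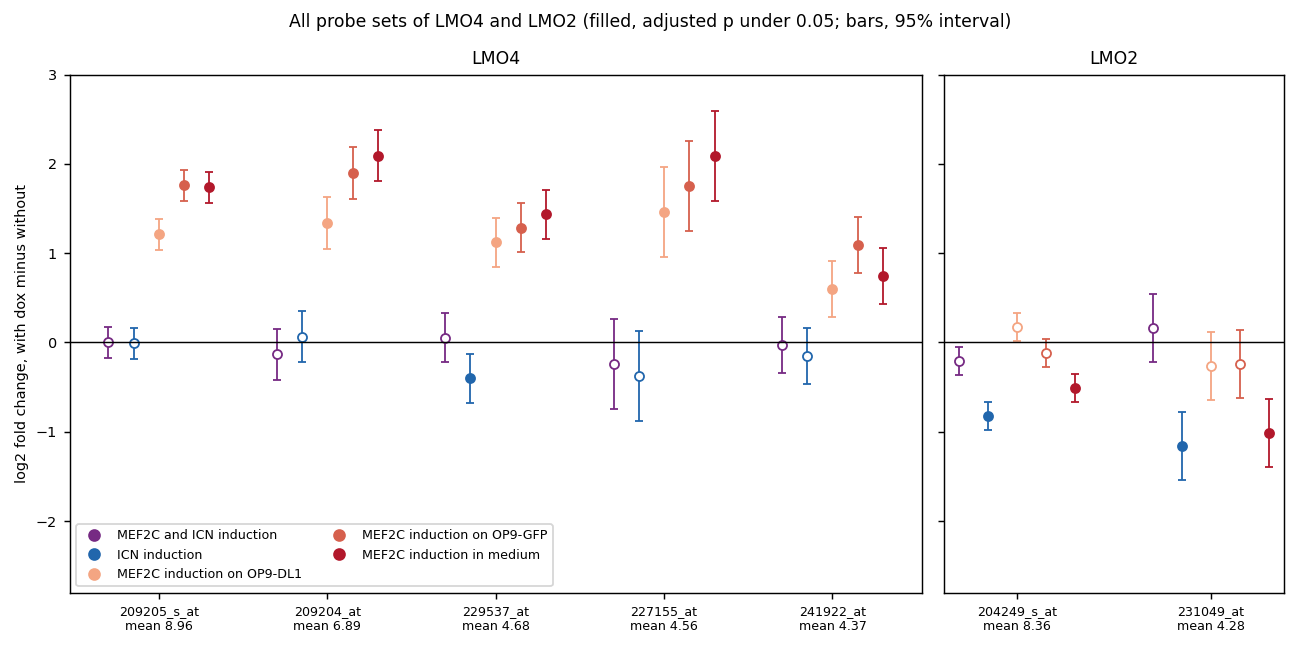
Log2 fold change with dox for all 5 probe sets of LMO4 and both of LMO2, with 95% intervals and the mean over 30 arrays under each name. All LMO4 probe sets rise in the 3 cultures of the MEF2C line, and the dim second LMO2 probe set follows the first in medium and with ICN.

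Few members differed between stroma with and without the Notch ligand. Without dox, OP9-DL1 against OP9-GFP called 1 member, *LYL1*, with 1.63% of all genes called. It read 9.94, 9.93 and 10.03 on OP9-DL1 and 10.29, 10.30 and 10.27 on OP9-GFP, a fall of 0.32 (adjusted p = 0.0272). With dox 2 members were called, against 1.4% of all genes. *LMO2* was higher on OP9-DL1 (8.62, 8.68 and 8.63) than on OP9-GFP (8.37, 8.32 and 8.32), by 0.31 (adjusted p = 0.0427). *LMO4* was lower on OP9-DL1 by 0.36 (adjusted p = 0.0282). Median centring ended these 3 calls, and so did a fit on the 2 compared groups alone. The *LMO2* call was also lost without any 1 of its 6 arrays (adjusted p = 0.101 to 0.198), that of *LYL1* without any 1 of 5 (0.0533 to 0.126) and that of *LMO4* without any 1 of 4 (0.0651 to 0.208). *HES1* was 9.34 on OP9-DL1 and 7.45 on OP9-GFP without dox, and 8.83 on OP9-DL1 and 5.64 on OP9-GFP with dox.

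Between stroma without the ligand and medium, *LDB1* was among the members called. Against medium without dox, OP9-GFP called 4 of 6 members, 2 up and 2 down, and with dox 2, 1 up and 1 down, where 22.2% and 20.6% of all genes were called. *LDB1* read 8.07, 7.79 and 8.04 on OP9-GFP and 7.47, 7.52 and 7.76 in medium without dox. With dox it read 8.03, 7.95 and 8.19 on OP9-GFP and 7.87, 7.63 and 7.52 in medium. It rose by 0.38 both without and with dox (adjusted p = 0.00381 and 0.00403), and its second probe set, 203451_at, rose by 0.40 with dox and did not pass without (0.28). These are the only comparisons that called the scaffold gene. *LMO2* fell on OP9-GFP by 0.51 without dox (8.39, 8.62 and 8.36, against 8.86, 9.07 and 8.98 in medium, adjusted p = 1.86e-05). Its second probe set fell by 1.88, to a dim 4.25 on OP9-GFP, so that fall is no exact fold. With dox *LMO2* averaged 8.34 on OP9-GFP and 8.46 in medium, which did not pass. Its dim second probe set fell with dox too, by 1.10 (4.01 against 5.12, adjusted p = 8.47e-05), and the mean of its probe sets by 0.61 (adjusted p = 1.93e-04). *LYL1* rose by 0.25 without dox (adjusted p = 0.0189). *LMO4* fell by 0.28 without dox and 0.26 with dox (adjusted p = 0.0182 and 0.0330), and the second brightest *LMO4* probe set passed in neither (0.00 without dox and -0.20 with dox). Of the 11 stromal markers, *COL1A2* (0.80) and *COL6A3* (0.72) were higher and *DCN* (-0.28) and *SPARC* (-0.33) lower on OP9-GFP without dox, and with dox *COL6A3* was higher (0.47) and *SPARC* lower (-0.27). Their part in these calls was not tested.

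Before any dox, the lines already differed in these genes. Of the members 3 were lower in the uninduced MEF2C and ICN line than in the uninduced MEF2C line, against 23.9% of all genes called, and 3 were lower in the uninduced ICN line, against 25.2%. *LMO2* read 8.26, 8.31 and 8.30 in the MEF2C and ICN line and 8.35, 8.33 and 8.33 in the ICN line, against 8.86, 9.07 and 8.98 in the MEF2C line. The differences were -0.68 and -0.63 (adjusted p = 1.99e-07 and 6.72e-07), and at the second probe set -2.78 and -1.57. That probe set was dim in both lines (3.35 and 4.56), so its differences are no exact folds. *LYL1* was lower by 0.29 in the MEF2C and ICN line and by 0.51 in the ICN line (adjusted p = 0.00633 and 1.15e-05). *LMO4* was lower by 0.25 in the MEF2C and ICN line (adjusted p = 0.0358), a difference its second brightest probe set has with the other sign (0.04, adjusted p = 0.886). *TAL1* was called once in all 17 comparisons, lower by 0.35 in the uninduced ICN line (5.45, 5.23 and 5.52) than in the uninduced MEF2C line (5.77, 5.96 and 5.51), and the 2 groups overlap (adjusted p = 0.0467). Its 3 other probe sets have means of 2.55 to 4.94 and were called in no comparison.

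Across all 10 groups the order of levels differs between members. *LMO4* was highest in the MEF2C line with dox: 9.75 on OP9-DL1, 10.10 on OP9-GFP and 10.36 in medium. Each of these 3 groups stood apart from its neighbour in the order. The other 7 group means lay between 8.34 and 8.63. *LMO1* was highest in the same 3 groups (5.39 on OP9-GFP and in medium and 5.18 on OP9-DL1), which overlapped one another, and lowest in the ICN line with dox (3.43). Over the 10 group means *LMO1* and *LMO4* had a Pearson correlation of 0.96, and 6 of those groups are of 1 line, so the value describes the shared pattern and is no test. *LYL1* was highest on OP9-GFP without dox (10.28) and lowest in the MEF2C and ICN line with dox (8.20), with the ICN line with dox next above it (8.55). *LMO2* was highest in the MEF2C line in medium without dox (8.97) and lowest in the ICN line with dox (7.52). The group means of *TAL1* spanned 0.36 and those of *LDB1* 0.66, with SDs within groups of 0.13 and 0.09 (medians over groups), and every pair of neighbours in the order of *TAL1* overlapped. Both fall short of the span of 1 that *LMO1* (1.96), *LMO2* (1.45), *LMO4* (2.02) and *LYL1* (2.09) passed.

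The genes whose group means ran most like those of a member were sought among 2081 others with a span of at least 1. *LMO4* ran closest to *AQP4*, a water channel (r = 0.98), *CSRP3*, the muscle LIM protein (0.97), and *GLDC*, the glycine decarboxylase (0.96). *LMO1* ran closest to *CNST*, *PSTPIP2* and *PGCKA1* (0.98, 0.98 and 0.97), and *LYL1* to *TIMP1*, an inhibitor of metalloproteinases, *RCHY1* and *TRERF1* (0.99 each). For *LMO2* the nearest were *ASIC1*, *IDH1*, the isocitrate dehydrogenase, and *SLC39A14* (0.93, 0.93 and 0.92), a looser likeness than for the other members. These are descriptions over 10 group means.

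The partners of these complexes were taken from a list of 33 genes, of which 30 were measured. With MEF2C over the 3 cultures 2 of them rose, 1 fell and 27 did not pass, where 7.2% of all genes were called, with a median of -0.05 against -0.01 over all genes. *GATA3*, the GATA factor of T cells, averaged 12.11 ± 0.15 with dox and 11.54 ± 0.07 without (SD, n = 9 each) and rose by 0.57 (limma, adjusted p = 1.95e-06). *ID3*, an inhibitor that takes E proteins away from DNA, rose by 0.56 (adjusted p = 0.00663). *CBFA2T3*, the corepressor ETO2 of TAL1 complexes, fell by 0.35 (adjusted p = 0.0308). The E proteins *TCF3* and *TCF12* did not pass (0.12 and -0.06).

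With ICN 3 partners rose, 6 fell and 21 did not pass (median -0.13, against -0.03 over all genes, of which 15.9% were called), and *GFI1B* and *CBFA2T3* fell by far more than any member. *GFI1B*, a repressor that recruits KDM1A, averaged 5.35 ± 0.07 with dox and 8.91 ± 0.10 without (SD, n = 3 each), a change of -3.56 (adjusted p = 3.74e-21). *CBFA2T3* averaged 4.70 ± 0.38 with dox, a dim level, and 6.42 ± 0.14 without, a change of -1.72 that is no exact fold. *SSBP3*, which holds LDB1 in the complex, rose by 0.81 and *ID3* by 0.64, while the related *SSBP2* fell by 0.58. *GATA3* fell by 0.51, against its rise with MEF2C. In the MEF2C and ICN line 1 partner rose, 9 fell and 20 did not pass (median -0.03, against 0.02 over all genes, of which 16.8% were called). *GFI1B* averaged 4.77 ± 0.18 with dox and 9.22 ± 0.02 without (-4.45), *CBFA2T3* 4.28 ± 0.26 with dox and 6.58 ± 0.14 without (-2.30), and *ID3* rose by 1.35. Both *GFI1B* and *CBFA2T3* lay under 5 with dox there, so their falls are no exact folds. *ID2* fell by 0.67, *TCF4* by 0.63 and *GATA3* by 0.20. *TCF3* and *TCF12* passed in neither line.

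Compared with MEF2C induction in medium, the change in the MEF2C and ICN line was lower for 8 partners and higher for 1 (median -0.11, against 0.02 over all genes, of which 10.5% differed). *GATA3* differed by -1.01 (adjusted p = 6.7e-10), beside -4.24 for *GFI1B*, -2.22 for *CBFA2T3*, -0.59 for *TCF4* and 0.62 for *ID3*, while *TCF3* and *TCF12* did not pass (-0.08 each). Without dox, 10 partners were higher and 7 lower in the MEF2C and ICN line than in the MEF2C line, where 23.9% of all genes were called. *HDAC2*, near the floor in the MEF2C and ICN line (2.33), averaged 9.75 in the MEF2C line, so no size is given to that difference. The others were led by *ID1* (-0.94), *ID2* (0.93), *GFI1B* (-0.85) and *TCF4* (0.73), with *GATA3* at -0.29, *TCF3* at 0.27 and *TCF12* at -0.08, which did not pass. In the ICN line 5 were higher and 8 lower, where 25.2% of all genes were called, led by *ID3* (1.65), *GFI1B* (-1.16), *ID1* (-0.84), *HDAC2* (0.60) and *CBFA2T3* (-0.59), with *GATA3* at -0.44, *TCF3* at 0.36 and *TCF12* at -0.19.

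**Figure D4:**
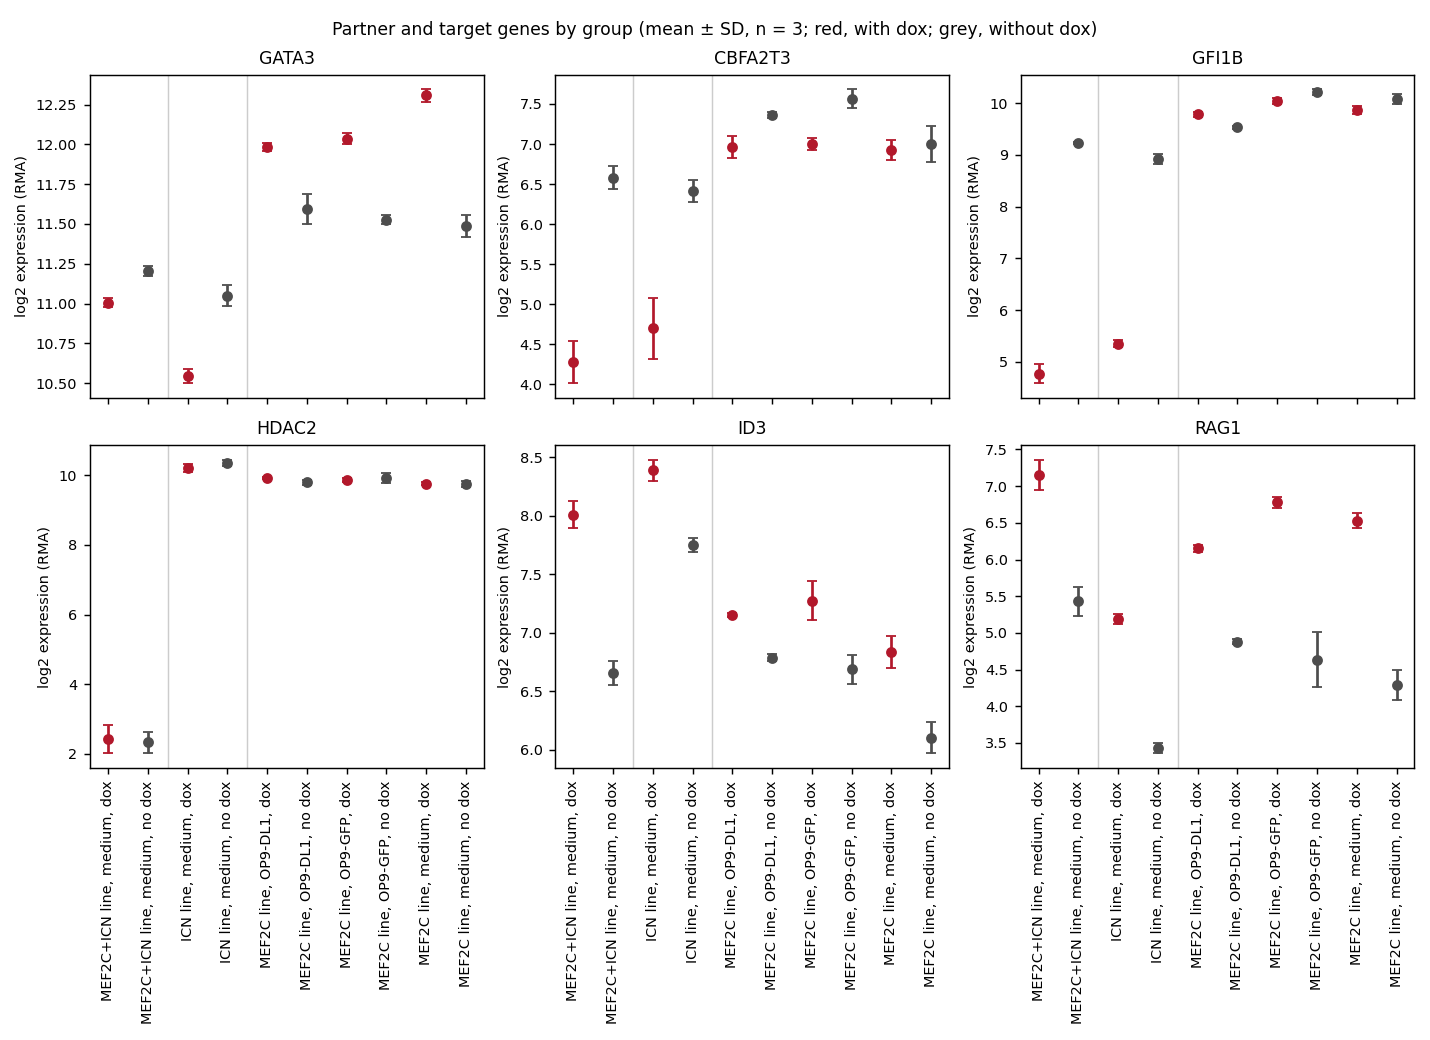
Log2 expression of 5 partners and 1 target gene by group, mean and SD of 3 arrays (red, with dox; grey, without dox; the vertical axis differs between panels). GFI1B and CBFA2T3 fall with ICN in both lines that carry it, and GATA3 is highest in the MEF2C line with dox. HDAC2 is at 2.42 and 2.33 in the groups with and without dox of the MEF2C and ICN line.

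A second list held 20 genes described as targets of TAL1, LMO2 or LYL1 complexes or of the E proteins in them, and 19 were measured. With MEF2C over the cultures 6 rose, 3 fell and 10 did not pass, where 7.2% of all genes were called, and the median was 0.00 against -0.01 over all genes. The recombinase genes *RAG1* and *RAG2* averaged 6.49 ± 0.28 and 5.62 ± 0.16 with dox, against 4.60 ± 0.33 and 4.69 ± 0.23 without (SD, n = 9 each), rises of 1.88 and 0.93. Both were dim without dox, so these rises are no exact folds. *ARID5B*, a target shared by TAL1 and its partners in T-ALL, rose by 1.13 (adjusted p = 3.06e-08), the IL-7 receptor chain *IL7R* by 0.83 and *TRIB2* by 0.82. *KIT*, *CD34* and *NOTCH3* were among the 10 that did not pass, and the mean of *KIT* was 2.98 or less in every group.

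With ICN 4 targets rose and 7 fell (median -0.16, against -0.03 over all genes, of which 15.9% were called). *IL7R* rose by 1.87 and *RAG1* by 1.76, while *ALDH1A2*, an enzyme of retinoic acid synthesis that TAL1 switches on in T-ALL, averaged 6.19 ± 0.20 with dox and 7.84 ± 0.13 without (SD, n = 3 each) and fell by 1.66. *ARID5B* fell by 0.94 and the erythroid factor *NFE2* by 0.72. In the MEF2C and ICN line 5 rose and 6 fell (median 0.03, against 0.02 over all genes, of which 16.8% were called). *IL7R* averaged 9.40 ± 0.05 with dox and 4.74 ± 0.11 without, a rise of 4.65, and *RAG1* rose by 1.73, while *CD69* (-1.98), *NFE2* (-1.73) and *ALDH1A2* (-1.55) fell. The level of *IL7R* without dox lay under 5, so its rise is no exact fold. Compared with MEF2C induction in medium 8 targets had a lower change and 1, *IL7R*, a higher one (3.83, median of the list -0.16 against 0.02 over all genes, of which 10.5% differed). *ALDH1A2* (-1.80), *CD69* (-1.60), *RAG2* (-1.55) and *NFE2* (-1.46) led the lower ones, and *ARID5B* (-1.34) and *TRIB2* (-1.22) followed. *RAG1* rose with dox in both lines and its difference did not pass (-0.51).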

How the data were processed

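RNA of 30 LOUCY samples was read on Affymetrix HG U133 Plus 2.0 arrays, with groups and replicate numbers taken from the sample labels. The authors deposited log2 values from RMA, a method that corrects background, sets all arrays to 1 distribution and summarises the probes of a probe set (R 3.6.3 and affy 1.64.0 in the submitters' processing notes). RMA hides changes in total RNA and shrinks dim differences, arrays have no read depth, and their number limits the precision. Values were used as deposited, without 62 control probe sets. Names come from the platform annotation, where 41091 probe sets carry 1 symbol. A gene is given by its brightest probe set, which leaves 19775 genes.

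Moderated tests used limma 3.58.1 in R 4.3.3, with Benjamini-Hochberg adjustment over 54613 probe sets. All 9 arrays with dox and 9 without were compared without a covariate, following the methods of the study, and the other 16 comparisons used 1 model of 10 groups (the one of OP9-DL1 minus medium was added after the values were seen). Named genes are the members, *MEF2C*, *NOTCH1* and Notch targets, up to 5 called genes of each list by size, *GATA3*, *TCF3* and *TCF12* throughout, and the 3 genes most like a member. *KIT*, *CD34*, *NOTCH3*, *HDAC2* and the *ARID5B*, *TRIB2* differences were added after their values were seen. The members, lists and tests were chosen with earlier results of these data known. The steps were tested on simulated data. Alternatives changed the filter, the scaling, the variance prior, the control probe sets, the probe set of a gene, the threshold, the covariate or the test, or took the replicate number as a block or left out arrays. Proteins were not compared here.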

Additional observations from a re-analysis of the deposited data

Results flagged for a closer look

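A difference between 2 lines or cultures in the change with dox passed its own test for 7 pairs of member and comparison. Set against MEF2C induction in medium, the change in the MEF2C and ICN line differed by -1.73 for *LMO4*, by -1.35 for *LMO1* and by -0.97 for *LYL1*. Set against ICN induction, it differed by 0.62 for *LMO2* and by -0.59 for *LYL1*. In the MEF2C line, the change on OP9-DL1 differed from that in medium by 0.69 for *LMO2* and by -0.52 for *LMO4*, in a comparison added after the values were seen. The lines compared differ in *HDAC2* and in their constructs, and the part of either was not tested. Among the 12 sets of 9 arrays (6 members, with dox and without), no array stood apart by Dixon's criterion, and the largest ratio of gap to range was 0.42, for *TAL1* without dox. Each set pools the 3 cultures of the MEF2C line, so an array apart within 1 culture can be missed. Arrays of the ICN line and of the MEF2C and ICN line were not in this check.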

How the results depend on the processing

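Of 1027 values under alternatives other than leaving out 1 array or 1 replicate number, 963 kept their side of the threshold, and their direction where called. Fits without a whole culture are among the 1027. Another 52 lost the call, 11 gained one and 1 called value changed sign. That was *LMO4* in the uninduced MEF2C and ICN line against the uninduced MEF2C line, 0.042 at the second brightest probe set. Values called in neither fit changed sign 131 times, counting the fits that left out arrays. The rise of *LMO1* and *LMO4* with MEF2C over the 3 cultures kept its call in every alternative that could be run (at least 1.28 and 1.44). *LYL1* (-0.63 to -0.50) lost it only at the study's criteria, which ask for a log2 change of at least 0.6. *LMO1* is dim, so leaving out dim probe sets gives it no value.

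The count of members called moved by over 1.5 times as follows. At the study's criteria it was 2 for MEF2C in medium, 0 for OP9-DL1 against OP9-GFP in either dox state, 0 for OP9-GFP against medium without and with dox, and 1 for each of MEF2C and ICN induction minus ICN induction and the uninduced ICN and MEF2C and ICN lines. With dim probe sets left out it was 1 for OP9-DL1 minus OP9-GFP and 2 for MEF2C and ICN induction. Quantile normalization gave 1 for OP9-DL1 minus OP9-GFP and 1 for OP9-GFP minus medium, and the trended and robust prior gave 1 for OP9-DL1 minus OP9-GFP. Median centring gave 0 for OP9-DL1 against OP9-GFP in either dox state. With dox, the mean of the probe sets and the second brightest probe set also gave 0 there, and the second brightest gave 2 for OP9-GFP against medium without dox. Fitting the compared groups alone gave 0 for OP9-DL1 against OP9-GFP in either dox state, 1 for OP9-GFP against medium without and with dox, and 1 for the uninduced MEF2C and ICN line. For OP9-DL1 minus medium it was 1 with median centring, the replicate block, the mean of the probe sets, the study's criteria or the compared groups alone, and 0 at the second brightest probe set. The cause was not tested.

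Leaving out 1 array gave counts of 0 to 1 for OP9-DL1 minus OP9-GFP, OP9-GFP minus medium, and OP9-DL1 against OP9-GFP in either dox state, 3 to 4 for OP9-GFP against medium without dox, 1 to 2 with dox and for OP9-DL1 minus medium, 2 to 3 for ICN induction and each uninduced line, and 3 to 4 for MEF2C and ICN induction minus MEF2C induction in medium. The other comparisons kept their counts. MEF2C over the 3 cultures was refitted only without all arrays of 1 replicate number, and kept its count of 3. Besides the calls of OP9-DL1 against OP9-GFP, those lost were *LMO4* for OP9-DL1 minus medium (without medium replicates 1 and 3 in either dox state, any OP9-DL1 replicate without dox, and OP9-DL1 replicates 1 and 3 with dox), *LYL1* on OP9-GFP against medium without dox (0.20, without medium replicate 1), *TAL1* in the uninduced ICN line (without replicate 1 or 2 of either line), and *LMO4* on OP9-GFP against medium (without dox, replicate 2 of either culture; with dox, medium replicates 1 and 3 and OP9-GFP replicates 1 and 2) and in the uninduced MEF2C and ICN line (without its replicates 2 and 3 or MEF2C line replicates 2 and 3). *LMO1* gained a call with ICN without replicate 1 lacking dox (-0.52, adjusted p = 0.027, limma). *LMO4* gained one for OP9-DL1 minus OP9-GFP without OP9-DL1 replicate 2 with dox (-0.62, adjusted p = 0.0422, limma). For MEF2C and ICN induction minus MEF2C induction in medium, *LMO2* gained one without MEF2C line replicate 1 lacking dox (0.36, adjusted p = 0.0491, limma). There it also gained one without MEF2C and ICN line replicate 3 with dox (0.38, adjusted p = 0.0274, limma).

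Replicate numbers showed no clear pairing of the samples, though with 3 arrays per group the check cannot exclude one. Same-numbered deviations correlated at -0.14 to 0.19 over 33 pairs, 7 of them over 0.1. Taking the number as a replicate block changed no other member's call, leaving 3 for MEF2C over the cultures among them. A culture covariate and the methods' t-test also gave 3. The number of arrays and the dim signal of *LMO1* limit the precision.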
